A study of Mus musculus with 18 samples.

Results

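Autophagy is the process by which a cell encloses part of its own cytoplasm in a membrane vesicle and delivers it to lysosomes for degradation. The genes described here are 40 mouse genes that encode its core machinery, listed by name for their known roles and found in the files through their GENCODE symbols. All 40 were matched among the 55401 genes counted in each library, and all 40 passed the filter on low counts in every fit. They fall into 7 roles, which are 5 genes of the initiation kinase complex, 6 of the phosphatidylinositol 3-kinase complex and its regulators, 6 for membrane supply and for reading its lipid product, 10 conjugation enzymes, 5 ATG8 proteins, 6 cargo receptors and 2 transcription factors.

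As background, autophagy begins when the ULK kinase complex is released from inhibition by mTORC1 or is activated by AMP-activated kinase. A lipid kinase complex around beclin 1 then marks a patch of membrane with phosphatidylinositol 3-phosphate, on which WIPI proteins and the lipid transporter ATG2 let a cup of membrane grow. Enzymes that resemble those of ubiquitin conjugation attach ATG8 proteins (the LC3 and GABARAP families) to that membrane, and cargo receptors bind both ATG8 proteins and the material to be removed. The receptor p62, the product of Sqstm1, is itself consumed by autophagy, so its protein level is often read as a sign of flux, whereas its mRNA, which was measured here, is set by transcription and decay.

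The study sequenced polyA RNA of freshly isolated bile duct epithelium (primary cholangiocytes). The donors were mice with polycystic liver disease (PLD), whose ducts widen into cysts, and wild-type (WT) mice. The 6 groups of 3 libraries each were PLD mice treated with CPTH6, PLD mice treated with ML324, untreated PLD and WT mice at 2 months after tamoxifen, and untreated PLD and WT mice at 1 month after tamoxifen. CPTH6 blocks KAT2A and KAT2B, which acetylate histones, and has also been described as altering autophagy in tumour cell lines, while ML324 blocks KDM4 enzymes, which remove methyl groups from histones. Library titles give 3 months for both compounds. No group of untreated PLD mice is labelled 3 months, so an effect of a compound and an effect of time cannot be told apart in the comparisons with untreated PLD mice at 2 months. The labels name neither the gene inactivated in PLD mice nor the driver of the recombinase, and strain and dose are not given in them. Cells came from the minced biliary tree that remained after the parenchyma of a perfused liver had been taken off, and were captured on magnetic beads through the epithelial surface protein EpCAM. Whether replicates are separate animals is not stated, so p-values measure the spread among these samples, which may be technical.

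The library of ML324 replicate 2 was the smallest, with 16345740 counts, and that of PLD replicate 2 at 1 month the largest, with 29277311. WT replicate 1 at 2 months stood apart with 40039 genes that had a count, against 22780 to 30332 in the other libraries. The preparations differed in their cell content, and this touches every comparison below. The summed level of 12 cholangiocyte markers was 18383 to 22444 CPM (counts relative to the scaled total of each library) after CPTH6, 15698 to 19179 CPM after ML324, 12510 to 14408 CPM in PLD and 2330 to 4618 CPM in WT at 2 months, and 8265 to 11308 CPM in PLD and 3296 to 9113 CPM in WT at 1 month. For 12 endothelial markers the sums were 227 to 368, 171 to 730, 927 to 1705, 8648 to 14859, 2700 to 5291 and 2639 to 6358 CPM in the same order of groups. For 12 stellate cell and fibroblast markers they were 407 to 511, 312 to 1098, 3684 to 7863, 7278 to 13994, 10979 to 14065 and 3303 to 19028 CPM in that order, and for 12 hepatocyte markers 5182 to 6322, 3511 to 4721, 2636 to 5645, 695 to 1017, 2384 to 3754 and 536 to 2253 CPM. No marker of these lists was at 0 in all 3 libraries of a group. WT replicate 3 at 1 month held the highest cholangiocyte sum (9113 CPM) and the lowest fibroblast sum (3303 CPM) of its group.

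To give the sequence context of the genes that the results turn on, 250 bases before a RefSeq transcription start are shown for 4 genes called higher in PLD at 2 months and for Atg3, a gene called in no comparison. The sequences are from RefSeq (GRCm38.p6), which had an entry for 33 of the 40 genes, and are written 5′ to 3′ on the gene's own strand. Capitals mark GGGCGG (the GC box, bound by Sp1-type factors) or its complement and CACGTG (the E-box core that TFEB and TFE3 can bind). The Sqstm1 window lies at chr11:50210821-50211070 on the minus strand, that of Atg101 at chr15:101284051-101284300 on the plus strand, that of Atg14 at chr14:47568435-47568684 on the minus strand, that of Optn at chr2:5064118-5064367 on the minus strand and that of Atg3 at chr16:45158579-45158828 on the plus strand. The RefSeq start used for Atg14 lies downstream of the outermost start in the GENCODE annotation, so its window falls inside the span given for the gene below. The windows of Atg7, Atg4b, Wipi1 and Wipi2, and some windows of genes with several starts, also fall inside the spans of their genes. Others, such as those of Sqstm1, Atg101 and Atg3, overlap the span in part.
Sqstm1: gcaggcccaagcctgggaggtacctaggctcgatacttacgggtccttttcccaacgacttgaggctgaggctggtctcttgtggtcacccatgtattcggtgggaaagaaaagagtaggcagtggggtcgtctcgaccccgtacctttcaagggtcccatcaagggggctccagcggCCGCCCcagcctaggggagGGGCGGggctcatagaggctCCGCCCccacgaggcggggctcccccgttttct
Atg101: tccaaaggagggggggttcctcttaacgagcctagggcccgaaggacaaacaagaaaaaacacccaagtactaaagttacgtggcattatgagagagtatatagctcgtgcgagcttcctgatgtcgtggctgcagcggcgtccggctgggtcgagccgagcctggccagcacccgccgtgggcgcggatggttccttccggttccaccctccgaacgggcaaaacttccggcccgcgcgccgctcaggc
Atg14: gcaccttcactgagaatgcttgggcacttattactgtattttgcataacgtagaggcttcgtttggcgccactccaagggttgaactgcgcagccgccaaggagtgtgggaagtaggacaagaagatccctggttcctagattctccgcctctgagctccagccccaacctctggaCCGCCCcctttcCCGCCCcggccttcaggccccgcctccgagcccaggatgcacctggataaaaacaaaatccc
Optn: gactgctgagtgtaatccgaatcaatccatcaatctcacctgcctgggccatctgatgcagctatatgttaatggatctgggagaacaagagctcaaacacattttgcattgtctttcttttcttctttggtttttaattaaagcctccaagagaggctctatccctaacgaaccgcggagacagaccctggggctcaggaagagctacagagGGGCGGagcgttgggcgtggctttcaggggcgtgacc
Atg3: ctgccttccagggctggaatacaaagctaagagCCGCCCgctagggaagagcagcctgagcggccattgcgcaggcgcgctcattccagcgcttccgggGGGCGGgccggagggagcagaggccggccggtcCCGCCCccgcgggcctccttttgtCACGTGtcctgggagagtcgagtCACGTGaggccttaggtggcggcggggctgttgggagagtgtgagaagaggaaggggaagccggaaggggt

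The E-box core CACGTG, searched on either strand, was present in the windows of 3 of the 33 genes, Atg3, Atg5 and Atg7, which is 9.09%, beside 6.86% of the 27025 mouse genes with a window. In Atg3 it started 94 and 71 bases before the transcription start. The extended form TCACGTGA, which contains the core, occurred in Atg3 alone, beside 0.907% of all genes, and the full palindromic CLEAR element, which contains both, in none, beside 0.27%. Each of the 13 genes called higher in PLD at 2 months had a window, and none of these windows held an E-box core. The antioxidant response core TGACNNNGC was present in Atg13, Tax1bp1, Ulk2 and Vmp1 (12.1%, beside 11.5% of all genes), and the AP-1 site TGANTCA in none (7.82% of all genes). The GC box was present for 21 of the 33 genes (63.6%, beside 35.4%). Of the 33 genes 6 had several starts, and a gene was counted when any of its windows held the motif. The windows were also rich in G and C, with a median of 61.2% and 17 CpG dinucleotides, beside 52.8% and 6 for all genes. These are matches of letters within 250 bases and not sites of binding.

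Measured per length of all exons of a gene (TPM, averaged over the 18 libraries), Sqstm1 was the highest of the 40 genes at 1753 TPM. The ATG8 genes Gabarapl1 (371 TPM) and Gabarap (332 TPM) followed. The lowest were 3 conjugation genes, namely Atg4c, a protease of the ATG4 family, at 11.4 TPM, Atg10, the E2-like enzyme for ATG12, at 9.12 TPM and Atg16l2, a relative of the scaffold ATG16L1, at 7.72 TPM. Even these were counted in every library. The 40 genes together took 0.662% of all counts after CPTH6, 0.542% after ML324, 0.441% in PLD and 0.345% in WT at 2 months, and 0.418% in PLD and 0.392% in WT at 1 month. Without Sqstm1 the other 39 took 0.319%, 0.299%, 0.305%, 0.271%, 0.291% and 0.283% in the same order. Most of the difference in the sum between treated and untreated PLD libraries was therefore counts of Sqstm1.

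In PLD against WT at 1 month, 3 of the 40 genes were called higher and 0 lower by edgeR at an adjusted p under 0.05 (7.5%, beside 5.03% of all 17749 genes tested, with 3% called higher and 2.02% lower). They were Atg101, Atg14 and Optn, and the median log2 fold change of the 40 was 0.06, beside -0.05 over all genes tested. In bulk samples fewer cells of a type and less RNA per cell cannot be told apart, and cholangiocyte markers (4 of 12 called higher, 0 lower) and macrophage markers (1 of 12 lower) moved with this comparison, and their part in the result was not tested. All 3 calls were lost, leaving 0, when PLD replicate 1, PLD replicate 2 or WT replicate 2 was left out, while 2 remained without PLD replicate 3 and 1 (Optn) without WT replicate 1. A fit of only the 6 libraries compared called 0 of the 3, and a replicate block left Optn alone. Without WT replicate 3, the library with the high cholangiocyte sum, all 3 were called and Map1lc3a and Atg16l2 were called lower as well, which made 5. DESeq2 with all libraries called Map1lc3a besides the 3.

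At 2 months 13 of the 40 genes were called higher in PLD and 0 lower (32.5%, beside 40% of all genes called either way, 19.7% higher and 20.3% lower). The 13 were Ulk1, Atg13, Atg101, Atg14, Ambra1, Atg2a, Wipi2, Vmp1, Atg4d, Map1lc3b, Sqstm1, Optn and Calcoco1, and included all 3 of the genes called at 1 month. The median log2 fold change of the 40 was 0.15, beside -0.03 over all genes, and 30 of them were above 0. By role the counts were 3 of 5 in the initiation complex, 2 of 6 in the lipid kinase complex, 3 of 6 in membrane supply, 1 of 10 among conjugation enzymes, 1 of 5 ATG8 genes, 3 of 6 receptors and 0 of 2 transcription factors. The share called either way was below that over all genes, while the share called higher was above it and the share called lower was 0. Cell markers moved strongly here too, with 8 of 12 cholangiocyte markers higher, 12 of 12 endothelial markers lower, 1 of 12 fibroblast markers higher and 5 lower, 5 of 11 hepatocyte markers higher and 4 lower, and 1 of 12 macrophage markers higher and 4 lower, and their part in the result was not tested. Leaving out any library of the 6 left 11 to 13 genes called. Ulk1 was lost without PLD replicate 1 or 2 or WT replicate 1 or 2, Atg13 without WT replicate 1 and Vmp1 without WT replicate 2. Wipi1 was called lower and Tfeb higher without WT replicate 1. Ulk1, Atg13 and Ambra1 were lost without the filter on low counts, and DESeq2 called Gabarap and Wipi1 besides the 13.

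**Figure D1:**
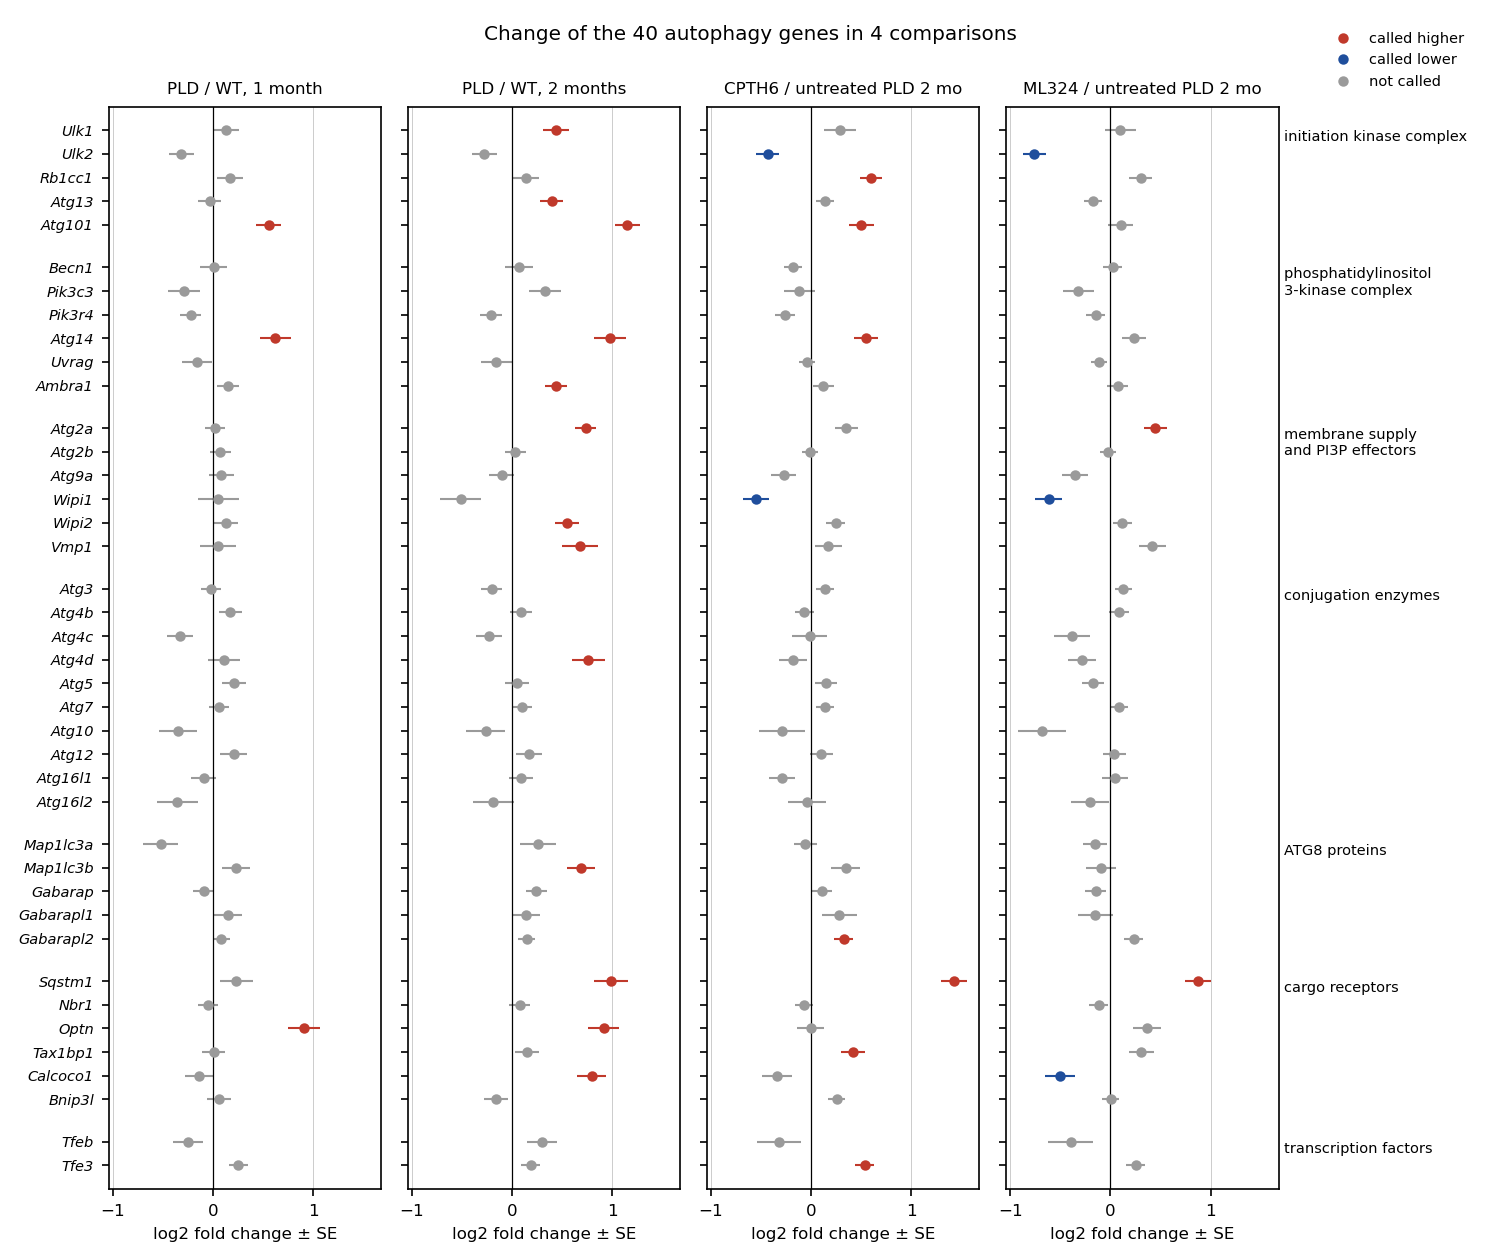
Log2 fold change (x axis, ± standard error) of each of the 40 genes, grouped by role down the page, in 4 comparisons from left to right. Red points are genes called higher and blue points genes called lower by edgeR at an adjusted p under 0.05; the PLD against WT panel at 2 months holds 13 red and 0 blue points, while the panels for CPTH6 and ML324 hold 7 and 2 red and 2 and 3 blue points.

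By edgeR with all libraries few of the genes were called for time or its interaction with genotype. In each case the share called either way was below that over all genes. In untreated PLD at 2 months against 1 month 3 genes were called higher, Atg101, Atg2a and Atg4d, and 0 lower (7.5%, beside 9.61% of all genes, 4.38% higher and 5.23% lower). None of these was left without PLD replicate 2 at 2 months or PLD replicate 2 or 3 at 1 month, and 1 was left without any other of the 6 libraries or without the filter on low counts. DESeq2 called Calcoco1, Pik3c3 and Tfeb besides the 3. Of the cell markers, 9 of 12 endothelial and 2 of 12 fibroblast markers were called lower and 1 hepatocyte and 1 macrophage marker higher in this comparison, and their part was not tested. In WT at 2 months against 1 month 0 were called by edgeR (beside 0.0507% of all genes, 0.0113% higher and 0.0394% lower), with 3 of 40 at an unadjusted p under 0.05 and a smallest adjusted p of 0.144 for Sqstm1. DESeq2 called 2 of them lower there, Map1lc3a and Sqstm1, and without WT replicate 3 at 1 month edgeR called 1, Map1lc3a. The interaction, which asks whether PLD against WT differed between 2 and 1 months, was called for Atg2a and Calcoco1 (5%, beside 5.68% of all genes, 2.55% higher and 3.13% lower). Of the 12 endothelial markers 11 were called lower in that interaction, and their part was not tested. Neither call was left with a replicate block or without PLD replicate 1 at 2 months, WT replicate 2 at 2 months or PLD replicate 1, 2 or 3 at 1 month. Only 1 call was left without PLD replicate 2 or 3 or WT replicate 1 at 2 months or WT replicate 1 at 1 month, and without WT replicate 3 at 1 month Map1lc3a was added, which made 3. DESeq2 with all libraries called Atg101, Map1lc3a and Sqstm1 in the interaction besides Atg2a and Calcoco1. The PLD and WT libraries at a given month entered both the time comparisons and the genotype comparisons, so these results are not independent of each other.

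After CPTH6, against untreated PLD at 2 months, 7 of the 40 genes were called higher and 2 lower (22.5%, beside 23.1% of all 16502 genes tested, 9.39% higher and 13.7% lower). Sqstm1, Rb1cc1, Tfe3, Atg14, Atg101, Tax1bp1 and Gabarapl2 were higher and Ulk2 and Wipi1 lower, with a median of 0.10 over the 40, beside -0.04 over all genes. After ML324 2 were higher, Sqstm1 and Atg2a, and 3 lower, Ulk2, Wipi1 and Calcoco1 (12.5%, beside 19.4% of all genes, 7.96% higher and 11.4% lower), with a median of -0.01, beside -0.01 over all genes. Both comparisons use the same 3 untreated libraries. All 12 fibroblast markers were called lower after CPTH6 and 11 after ML324, endothelial markers were lower for 5 and 4 of 12, and cholangiocyte markers higher for 5 and 1 of the 11 tested. Of the 8 hepatocyte markers tested 2 were higher and 1 lower after CPTH6, and 1 higher and 2 lower after ML324. The part of these markers in the results was not tested. Leaving out a library gave 5 to 10 calls for CPTH6, with 5 without CPTH6 replicate 3 or PLD replicate 3, and 3 to 6 calls for ML324, with 3 without PLD replicate 1 or 3. In CPTH6 Gabarapl2 and Ulk2 were lost without the filter on low counts and Gabarapl2 with a replicate block. DESeq2 called Atg2a, Bnip3l and Wipi2 besides the 9 for CPTH6, and Vmp1 besides the 5 for ML324. With a replicate block Map1lc3b was added for CPTH6 and Rb1cc1 for ML324.

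Directly between the compounds, 0 of the 40 genes and 0 of all 15989 genes tested were called by edgeR in CPTH6 against ML324 (0%), with 14 of the 40 and 2008 of all genes at an unadjusted p under 0.05. The smallest adjusted p among the 40 was 0.235, for Sqstm1, and DESeq2 called 1 of the 40, again Sqstm1, and 293 of all genes. The direction was mostly one-sided, with 33 of the 40 log2 fold changes above 0 and a median of 0.10, beside -0.02 over all genes. The test misses the threshold for each gene, which does not show that the compounds act alike.

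The initiation complex was the group in which each of the 5 genes was called in at least 1 comparison. The share of all genes tested that were called in at least 1 comparison was not computed. In PLD against WT at 2 months alone it was 40%, which is a share of 1 comparison and no like measure for a count over all of them. Atg101 (ENSMUSG00000037204.7, chr15:101284272-101290945, plus strand, mm10), which encodes the subunit that stabilises ATG13, had 61.9, 60.2 and 51.5 CPM after CPTH6 and 37.8, 48.8 and 41.4 CPM after ML324. Without a compound it had 42.6, 44.5 and 36.2 CPM in PLD at 2 months and 18.0, 18.5 and 19.8 CPM in WT at 2 months. The 1 month libraries had 30.8, 31.7 and 24.2 CPM in PLD and 20.2, 18.2 and 19.8 CPM in WT. All PLD libraries lay above all WT libraries at either time, the CPTH6 libraries were the highest of all, and the ML324 libraries overlapped with untreated PLD. Its log2 fold change in PLD against WT was 0.56 ± 0.12 (standard error, n = 3 each; edgeR adjusted p = 0.0314) at 1 month and 1.15 ± 0.12 (edgeR adjusted p = 0.000142), a 2.22-fold difference, at 2 months. The 1 month call was lost without PLD replicate 1 or 2 or WT replicate 1 or 2. The interaction, 0.60 ± 0.17, was not called by edgeR (edgeR adjusted p = 0.0711) but was called by DESeq2. The rise within PLD was 0.53 ± 0.12 (edgeR adjusted p = 0.0273) for 2 months against 1 month and was lost when any of those 6 libraries was left out. CPTH6 against untreated PLD gave 0.50 ± 0.12 (edgeR adjusted p = 0.0169), a call that was lost without CPTH6 replicate 1 or PLD replicate 3 (edgeR adjusted p = 0.0663 and 0.065).

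Ulk1 (ENSMUSG00000029512.11, chr5:110784488-110810097, minus strand), the kinase that starts the process, had 151, 193 and 149 CPM after CPTH6 and 165, 141 and 113 CPM after ML324. At 2 months it had 144, 146 and 116 CPM in PLD and 101, 90.6 and 111 CPM in WT, and at 1 month 130, 136 and 118 CPM in PLD and 109, 106 and 130 CPM in WT. The PLD and WT libraries were separate at 2 months, with 0.44 ± 0.13 (edgeR adjusted p = 0.0201; 0.0548 to 0.0789 without PLD replicate 1 or 2 or WT replicate 1 or 2), and overlapped at 1 month (0.13, 95% interval -0.15 to 0.42). Its relative Ulk2, a kinase with an overlapping role, was lower after the compounds. It had 40.7, 46.3 and 38.0 CPM after CPTH6 and 33.3, 34.9 and 28.3 CPM after ML324. Untreated cells had 52.4, 63.0 and 53.7 CPM in PLD at 2 months and 63.0, 74.2 and 70.2 CPM in WT at 2 months. At 1 month the values were 53.0, 58.9 and 68.1 CPM in PLD and 70.4, 80.0 and 70.8 CPM in WT. Every treated library was below every untreated one. Ulk2 fell by 0.43 ± 0.11 on the log2 scale after CPTH6 (edgeR adjusted p = 0.0238) and by 0.76 ± 0.12 after ML324 (edgeR adjusted p = 0.00279), both against untreated PLD at 2 months. The CPTH6 call was lost without CPTH6 replicate 1 or 3 or PLD replicate 2. In PLD against WT it was not called at 1 month (-0.32) or at 2 months (-0.28).

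Rb1cc1 (ENSMUSG00000025907.14, chr1:6206197-6276648, plus strand), which encodes the scaffold FIP200, had 99.0, 121 and 99.3 CPM after CPTH6 and 78.4, 89.9 and 83.8 CPM after ML324. The untreated libraries had 68.5, 80.4 and 62.8 CPM in PLD at 2 months and 59.2, 63.1 and 72.4 CPM in WT at 2 months. Values at 1 month were 76.9, 94.7 and 82.8 CPM in PLD and 67.6, 76.8 and 79.0 CPM in WT. The CPTH6 libraries lay above all others and the rise was 0.60 ± 0.11 (edgeR adjusted p = 0.00547), whereas ML324 overlapped with untreated PLD at 0.30 and was not called. The ML324 change was called with a replicate block or without PLD replicate 2. Atg13, the adaptor that links the kinase to the complex, had 45.0, 55.1 and 46.6 CPM in PLD and 33.1, 40.6 and 39.0 CPM in WT at 2 months, a rise of 0.40 ± 0.11 (edgeR adjusted p = 0.0187; 0.0729 without WT replicate 1).

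In the lipid kinase complex Becn1, Pik3c3 and Pik3r4 were called in no comparison by edgeR with all libraries, while the targeting subunit gene Atg14 was called in 3. Atg14 (ENSMUSG00000037526.7, chr14:47540893-47570649, minus strand), which brings the complex to the site where autophagosomes form, had 57.2, 48.6 and 51.9 CPM after CPTH6 and 39.1, 45.3 and 39.0 CPM after ML324. In untreated mice it had 36.2, 41.0 and 31.6 CPM in PLD at 2 months and 17.6, 17.7 and 20.6 CPM in WT at 2 months. Earlier, at 1 month, it had 32.4, 41.2 and 31.7 CPM in PLD and 20.7, 19.9 and 27.0 CPM in WT. PLD and WT were separate at either time, and CPTH6 was separate from untreated PLD. The rise in PLD was 0.62 ± 0.16 (edgeR adjusted p = 0.0477) at 1 month, with no call when any library but WT replicate 3 was left out, and 0.98 ± 0.16 (edgeR adjusted p = 0.000948) at 2 months, and CPTH6 against untreated PLD gave 0.54 ± 0.12 (edgeR adjusted p = 0.0111). The 1 month value is close to the threshold, with an adjusted p of 0.0544 by edgeR under another scaling of the libraries.

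Becn1 (ENSMUSG00000035086.13, chr11:101285952-101302286, minus strand), which encodes beclin 1, kept group means between 66.8 and 76.2 CPM. It had 68.4, 65.9 and 66.1 CPM after CPTH6 and 75.8, 73.5 and 74.5 CPM after ML324. Without a compound it had 75.5, 84.7 and 68.4 CPM in PLD at 2 months and 65.0, 77.2 and 78.7 CPM in WT at 2 months. The earlier libraries, of 1 month, had 75.2, 64.7 and 68.8 CPM in PLD and 75.8, 73.5 and 55.9 CPM in WT. PLD and WT overlapped at either time, and the log2 fold change of PLD against WT was 0.07 (95% interval -0.24 to 0.37) at 2 months and 0.01 (95% interval -0.30 to 0.31) at 1 month. Of its exon bases 43.9% overlap Cntd1 on the opposite strand, which reached at most 1.19 CPM. Ambra1, a regulator of beclin 1, rose in PLD at 2 months by 0.44 ± 0.11 (edgeR adjusted p = 0.00934), with 75.6, 86.6 and 80.9 CPM in PLD and 56.7, 58.4 and 66.0 CPM in WT. Pik3c3, the lipid kinase itself, Pik3r4, its regulatory subunit, and Uvrag, which replaces ATG14 in the endosomal form of the complex, were called in no comparison by edgeR with all libraries. In PLD at 2 months against 1 month, where its change was 0.48 ± 0.16 (edgeR adjusted p = 0.0779), Pik3c3 was called by DESeq2 and by edgeR without both WT libraries that stood apart. Pik3c3 had 40.5, 57.9 and 39.4 CPM in PLD and 33.9, 38.4 and 38.5 CPM in WT at 2 months, but 31.9, 34.7 and 33.8 CPM in PLD and 37.7, 35.7 and 47.8 CPM in WT at 1 month. All PLD libraries were thus above WT at 2 months and below WT at 1 month, with changes of 0.33 and -0.29, neither of them called by edgeR.

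Among the genes for membrane supply Atg2a and Wipi2 rose in PLD and Wipi1 fell after the compounds. Atg2a (ENSMUSG00000024773.15, chr19:6241668-6262335, plus strand), which encodes a lipid transporter between the endoplasmic reticulum and the growing membrane, had 136, 153 and 141 CPM after CPTH6 and 167, 140 and 139 CPM after ML324. Untreated cells had 109, 129 and 101 CPM in PLD at 2 months and 64.8, 69.6 and 71.8 CPM in WT at 2 months. The 1 month values were 84.3, 81.0 and 75.8 CPM in PLD and 84.2, 74.2 and 76.5 CPM in WT. The genotypes overlapped at 1 month and were separate at 2 months, where PLD was 0.73 ± 0.11 higher (edgeR adjusted p = 0.000501, 1.66-fold). The interaction was 0.72 ± 0.15 (95% interval 0.39 to 1.04, edgeR adjusted p = 0.0257), and was lost without PLD replicate 1 or WT replicate 2 at 2 months or without PLD replicate 1, 2 or 3 or WT replicate 1 at 1 month. It was also lost with a replicate block (edgeR adjusted p = 0.0556) and without the filter on low counts (edgeR adjusted p = 0.115). PLD at 2 months was 0.51 ± 0.10 higher than PLD at 1 month (edgeR adjusted p = 0.0194), a call kept only without PLD replicate 3 at 2 months, and ML324 was 0.45 ± 0.12 higher than untreated PLD (edgeR adjusted p = 0.025; 0.0651 without ML324 replicate 1, 0.079 without PLD replicate 1 and 0.0876 without PLD replicate 3). CPTH6 against untreated PLD was 0.35 and was not called. This change was called, however, by DESeq2, with RLE scaling, without the filter on low counts and in a fit of only the 6 libraries compared. It was also called without PLD replicate 2. Its paralog Atg2b stayed between 49.4 and 53.2 CPM in the group means and was called in no comparison.

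Wipi1 and Wipi2 encode related proteins that bind phosphatidylinositol 3-phosphate, and they differed in direction. Wipi1 (ENSMUSG00000041895.15, chr11:109573331-109611967, minus strand) had 28.0, 24.4 and 23.4 CPM after CPTH6 and 22.9, 25.1 and 22.2 CPM after ML324. The untreated libraries had 31.9, 36.0 and 43.4 CPM in PLD at 2 months and 43.9, 62.5 and 54.6 CPM in WT at 2 months. Its 1 month values were 53.6, 51.3 and 60.2 CPM in PLD and 54.7, 64.8 and 37.7 CPM in WT. Treated libraries were below all untreated ones: Wipi1 fell by 0.55 ± 0.13 after CPTH6 (edgeR adjusted p = 0.0163) and by 0.62 ± 0.13 after ML324 (edgeR adjusted p = 0.0126), the first of these being lost without CPTH6 replicate 2 or 3 or PLD replicate 3. PLD against WT at 2 months was -0.51 ± 0.20 and just missed the threshold (edgeR adjusted p = 0.0659). DESeq2 called this change. Wipi2, which recruits the ATG16L1 complex, had 102, 120 and 100.2 CPM in PLD and 68.0, 72.6 and 82.9 CPM in WT at 2 months, a rise of 0.55 ± 0.12 (edgeR adjusted p = 0.00536). Vmp1, a scramblase of the endoplasmic reticulum, had 94.0, 128 and 97.2 CPM in PLD and 63.9, 56.6 and 81.0 CPM in WT at 2 months, a rise of 0.68 ± 0.18 (edgeR adjusted p = 0.0129; 0.0542 without WT replicate 2). In ML324 against untreated PLD Vmp1 was called by DESeq2, with RLE scaling, without the filter on low counts or without PLD replicate 2. The microRNA gene Mir21a lies within Vmp1 exons and shares 2.38% of their bases. Atg9a, the membrane protein of the seed vesicles, was called in no comparison.

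Among the conjugation enzymes 9 of the 10 genes were called in no comparison by edgeR with all libraries. The share of all genes tested that were never called was not computed to set beside this count, so the count is not read as a trait of this role. The 9 conjugation genes are Atg7, the E1-like enzyme, Atg3 and Atg10, the E2-like enzymes, Atg5, Atg12, Atg16l1 and Atg16l2, of the complex that attaches ATG8 to lipid, and the proteases Atg4b and Atg4c. Besides Atg16l2 without WT replicate 3 at 1 month, Atg3 was called in PLD against WT at 2 months without both WT libraries that stood apart. For Atg7 the group means ran from 38.9 to 45.0 CPM, a ratio of 1.16 between the highest and the lowest group, and for Atg3 from 38.8 to 45.9 CPM (1.18). Larger ratios, of 2.45 for Atg10 and 1.65 for Atg4c, belonged to genes of low level. Atg10 had 3.71, 3.49 and 3.24 CPM after CPTH6 and 2.05, 2.44 and 3.25 CPM after ML324. In untreated mice it had 4.77, 3.86 and 4.21 CPM in PLD at 2 months and 4.58, 5.91 and 5.11 CPM in WT at 2 months. At 1 month the values were 5.21, 5.17 and 4.67 CPM in PLD and 6.94, 7.02 and 4.98 CPM in WT. The genotypes overlapped at either time, and Atg10 was called in no comparison. Atg4c had 9.65, 12.7 and 9.33 CPM after CPTH6 and 9.15, 6.77 and 7.79 CPM after ML324. Without a compound it had 11.5, 11 and 9.55 CPM in PLD and 12.98, 12.3 and 12.7 CPM in WT at 2 months. The earlier libraries, of 1 month, had 10.8, 9.46 and 11.2 CPM in PLD and 13.1, 11.8 and 14.1 CPM in WT. PLD and WT were separate for Atg4c at either time, with no call. Atg16l2 had 18.8, 18.1 and 15.8 CPM after CPTH6 and 17.9, 15.03 and 12.7 CPM after ML324. Untreated cells had 17.9, 22.6 and 14.0 CPM in PLD and 22.02, 21.6 and 19.1 CPM in WT at 2 months. At 1 month the values were 18.2, 17.1 and 18.9 CPM in PLD and 24.4, 28.0 and 16.1 CPM in WT, and the genotypes overlapped at either time. The gene that was called was Atg4d (ENSMUSG00000002820.6, chr9:21265293-21277772, plus strand), another ATG4 protease, with 33.5, 28.99 and 33.9 CPM after CPTH6 and 31.0, 25.2 and 30.8 CPM after ML324. The untreated libraries had 32.5, 42.9 and 34.1 CPM in PLD and 22.9, 19.3 and 23.2 CPM in WT at 2 months. The earlier libraries, of 1 month, had 24.0, 20.2 and 18.4 CPM in PLD and 19.4, 15.6 and 22.2 CPM in WT. In the untreated groups the PLD libraries of 2 months lay above all others. PLD at 2 months was 0.76 ± 0.16 above WT (edgeR adjusted p = 0.00406) and 0.83 ± 0.16 above PLD at 1 month (edgeR adjusted p = 0.0178), the second of these being lost without PLD replicate 2 or 3 at either month. Exons of Kri1 on the opposite strand share 19.3% of the exon bases of Atg4d, and Kri1 reached up to 14.97 CPM in these counts without strand.

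The ATG8 genes kept the same order of group means in TPM in all 6 groups. That order rests on division by the length of all exons of a gene, 7517 bases for Map1lc3b, 2013 for Gabarapl1 and 1844 for Gabarap. In CPM, without that division, Map1lc3b had the highest mean of the family in all 6 groups. In WT at 2 months it had 210 CPM, beside 198 CPM for Gabarapl1. By TPM Gabarapl1 and Gabarap took the largest shares of the family, 31.6% ± 2.2 and 30.5% ± 1.8 in PLD and 34.6% ± 0.3 and 30.7% ± 1.5 in WT at 2 months (SD, n = 3 each). Map1lc3a took 18.7% ± 0.9 and 18.6% ± 1.7 in these groups, Map1lc3b 13.2% ± 0.7 and 9.82% ± 0.55, and Gabarapl2 5.92% ± 0.76 and 6.33% ± 0.32. Map1lc3b (ENSMUSG00000031812.16), which encodes LC3B, the protein most used to mark autophagosomes, was the member of the family that edgeR with all libraries called in PLD against WT. It had 395, 490 and 389 CPM after CPTH6 and 309, 333 and 269 CPM after ML324. In untreated mice it had 333, 399 and 275 CPM in PLD at 2 months and 187, 227 and 216 CPM in WT at 2 months. The 1 month libraries had 263, 280 and 262 CPM in PLD and 222, 241 and 217 CPM in WT. PLD libraries lay above WT libraries at either time, but the change was called only at 2 months, at 0.69 ± 0.14 (edgeR adjusted p = 0.00311, 1.61-fold), against 0.23 ± 0.14 (edgeR adjusted p = 0.347) at 1 month. The difference between these changes was not called (edgeR adjusted p = 0.182). Both compounds overlapped with untreated PLD.

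**Figure D2:**
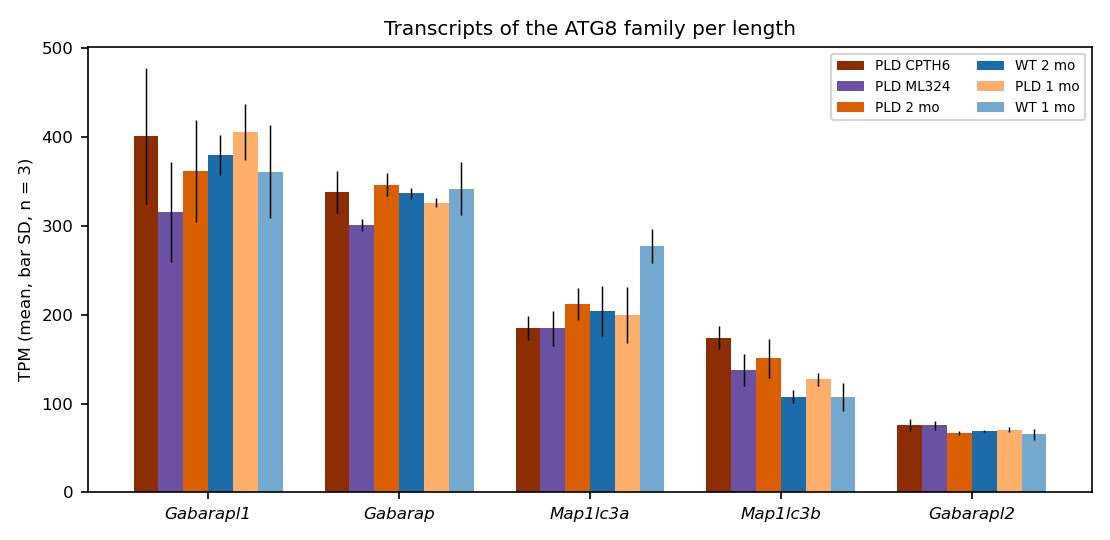
Level of the 5 ATG8 genes in TPM (y axis, from 0; bars are means and lines the SD of 3 libraries), with the 6 groups side by side for each gene. Gabarapl1 and Gabarap had the tallest bars and Gabarapl2 the lowest in every group, and Map1lc3b was higher in the PLD bars than in the WT bar of the same month.

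Gabarapl1 (ENSMUSG00000030161.8, chr6:129533160-129542346, plus strand) had 305, 247 and 227 CPM after CPTH6 and 189, 216 and 157 CPM after ML324. Without a compound it had 212, 260 and 173 CPM in PLD and 183, 201 and 210 CPM in WT at 2 months. At 1 month the values were 225, 247 and 216 CPM in PLD and 201, 215 and 196 CPM in WT. CPTH6 and ML324 libraries did not overlap, but the difference of 0.43 ± 0.16 was not called (edgeR adjusted p = 0.336), and PLD against WT was 0.13 (95% interval -0.17 to 0.44) at 2 months. Gabarap had 186, 232 and 189 CPM after CPTH6 and 158, 159 and 174 CPM after ML324. Untreated cells had 186, 203 and 175 CPM in PLD and 154, 169 and 160 CPM in WT at 2 months. The earlier libraries, of 1 month, had 172, 169 and 166 CPM in PLD and 198, 173 and 164 CPM in WT. At 2 months every PLD library was above every WT library, and the change of 0.24 ± 0.10 was called by DESeq2 but not by edgeR (edgeR adjusted p = 0.0829). Gabarap was called in no other comparison by either. Gabarapl2 had 58.9, 55.0 and 56.8 CPM after CPTH6 and 45.4, 46.0 and 45.7 CPM in untreated PLD at 2 months. These 2 groups were separate and narrow, and the rise was 0.32 ± 0.09 (edgeR adjusted p = 0.0352), a call kept only without CPTH6 replicate 2. Map1lc3a had 57.7, 65.9 and 74.8 CPM in PLD and 110, 100.5 and 71.1 CPM in WT at 1 month. WT replicate 3 was the low one of its group and overlapped with PLD. By edgeR the change of -0.52 ± 0.18 was not called with it (edgeR adjusted p = 0.103) and was called lower without it. DESeq2 called the change with all libraries.

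Of all called changes of the 40 genes in the 8 comparisons, the largest was that of the receptor gene Sqstm1 after CPTH6. Sqstm1 (ENSMUSG00000015837.15, chr11:50199366-50210827, minus strand) had 3650, 3847 and 3524 CPM after CPTH6 and 2346, 2397 and 2554 CPM after ML324. The untreated libraries had 1449, 1512 and 1161 CPM in PLD at 2 months and 616, 642 and 841 CPM in WT at 2 months. Earlier, at 1 month, Sqstm1 had 1349, 1331 and 1138 CPM in PLD and 1131, 985 and 1093 CPM in WT. The CPTH6 libraries lay above all ML324 libraries, these above all untreated PLD libraries, and these above the WT libraries of the same month, though by only a little at 1 month. The mean after CPTH6 was 5.25 times that of WT at 2 months. In PLD at 2 months Sqstm1 was 0.99 ± 0.17 above WT (edgeR adjusted p = 0.00129, 1.99-fold), against 0.23 ± 0.17 (95% interval -0.14 to 0.60, edgeR adjusted p = 0.428) at 1 month. By edgeR the interaction, 0.76 ± 0.24, was not called (edgeR adjusted p = 0.0874), nor was the change in WT with time of -0.63 ± 0.17 (edgeR adjusted p = 0.144). DESeq2 called both. Against untreated PLD at 2 months it was 1.42 ± 0.13 higher after CPTH6 (edgeR adjusted p = 0.000363, 2.69-fold) and 0.88 ± 0.13 higher after ML324 (edgeR adjusted p = 0.0024, 1.84-fold). Neither call was lost when any library was left out. CPTH6 exceeded ML324 by 0.55 ± 0.11, with an adjusted p of 0.235 by edgeR. Mrnip on the opposite strand overlaps 17.3% of the exon bases of Sqstm1 and reached at most 13.6 CPM.

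**Figure D3:**
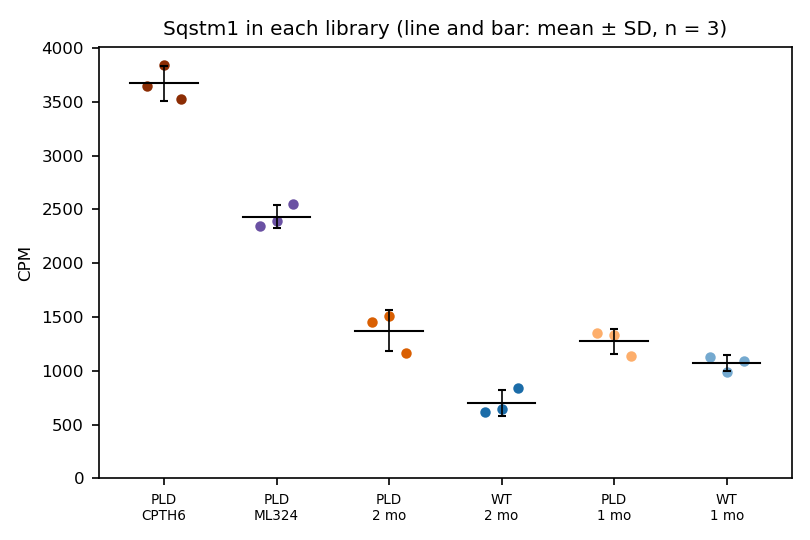
Sqstm1 in each library (y axis, CPM from 0), with 1 point per library in the 6 groups on the x axis; lines and bars are the mean ± SD of 3 libraries. The points fall into steps, with CPTH6 at 3524 to 3847, ML324 at 2346 to 2554, untreated PLD at 1138 to 1512 and WT at 616 to 1131 CPM.

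Optn (ENSMUSG00000026672.11, chr2:5020642-5064051, minus strand) encodes optineurin, a receptor for ubiquitin-coated mitochondria and bacteria. It had 52.7, 43.3 and 51.3 CPM after CPTH6 and 61.5, 53.8 and 69.4 CPM after ML324. In untreated mice it had 45.8, 56.7 and 46.1 CPM in PLD at 2 months and 23.0, 28.9 and 27.9 CPM in WT at 2 months. The values at 1 month were 56.9, 50.6 and 44.8 CPM in PLD and 32.1, 25.6 and 22.5 CPM in WT. All PLD libraries, treated or not, lay above all WT libraries. The change was 0.91 ± 0.16 (edgeR adjusted p = 0.0134) at 1 month and 0.91 ± 0.16 (edgeR adjusted p = 0.00133) at 2 months, a 1.88-fold difference at either time. The 1 month call was lost without PLD replicate 1 or 2 or WT replicate 2, and neither compound was called against untreated PLD.

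Calcoco1 (ENSMUSG00000023055.10, chr15:102706777-102722178, minus strand), a receptor for turnover of the endoplasmic reticulum, had 124, 153 and 114 CPM after CPTH6 and 127, 114 and 96.4 CPM after ML324. Without a compound it had 149, 195 and 153 CPM in PLD at 2 months and 83.2, 92.9 and 113 CPM in WT at 2 months. At 1 month it had 128, 122 and 110 CPM in PLD and 119, 130 and 142 CPM in WT. The genotypes were separate at 2 months only, where PLD was 0.79 ± 0.15 higher (edgeR adjusted p = 0.00195), against -0.14 at 1 month. The interaction was 0.93 ± 0.21 (95% interval 0.48 to 1.39, edgeR adjusted p = 0.0309), and with a library left out in turn was kept only without WT replicate 3 at 2 months or WT replicate 1, 2 or 3 at 1 month. It was lost with a replicate block (edgeR adjusted p = 0.0568). After ML324 it was 0.51 ± 0.15 lower than in untreated PLD (edgeR adjusted p = 0.0419), a call kept only without ML324 replicate 1 and lost with size factors of another kind (edgeR adjusted p = 0.0539) or in a fit of only the 6 libraries compared (edgeR adjusted p = 0.0725).

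Tax1bp1, a receptor that binds ubiquitin-coated cargo, had 214, 291 and 233 CPM after CPTH6 and 171, 204 and 178 CPM in untreated PLD at 2 months. The groups were separate and the rise was 0.42 ± 0.12 (edgeR adjusted p = 0.0342), lost without CPTH6 replicate 2 or 3 or PLD replicate 1 or 3. Nbr1, a receptor that works with p62, kept group means of 141 to 160 CPM and was called in no comparison, nor was Bnip3l, a mitochondrial receptor, at 104 to 127 CPM, by edgeR. In CPTH6 against untreated PLD, where its change was 0.25 ± 0.09 (edgeR adjusted p = 0.0585), Bnip3l was called by DESeq2 and by edgeR with RLE scaling. Nbr1 had a change of 0.08 (95% interval -0.15 to 0.30) in PLD against WT at 2 months, beside 0.99 for Sqstm1.

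**Figure D4:**
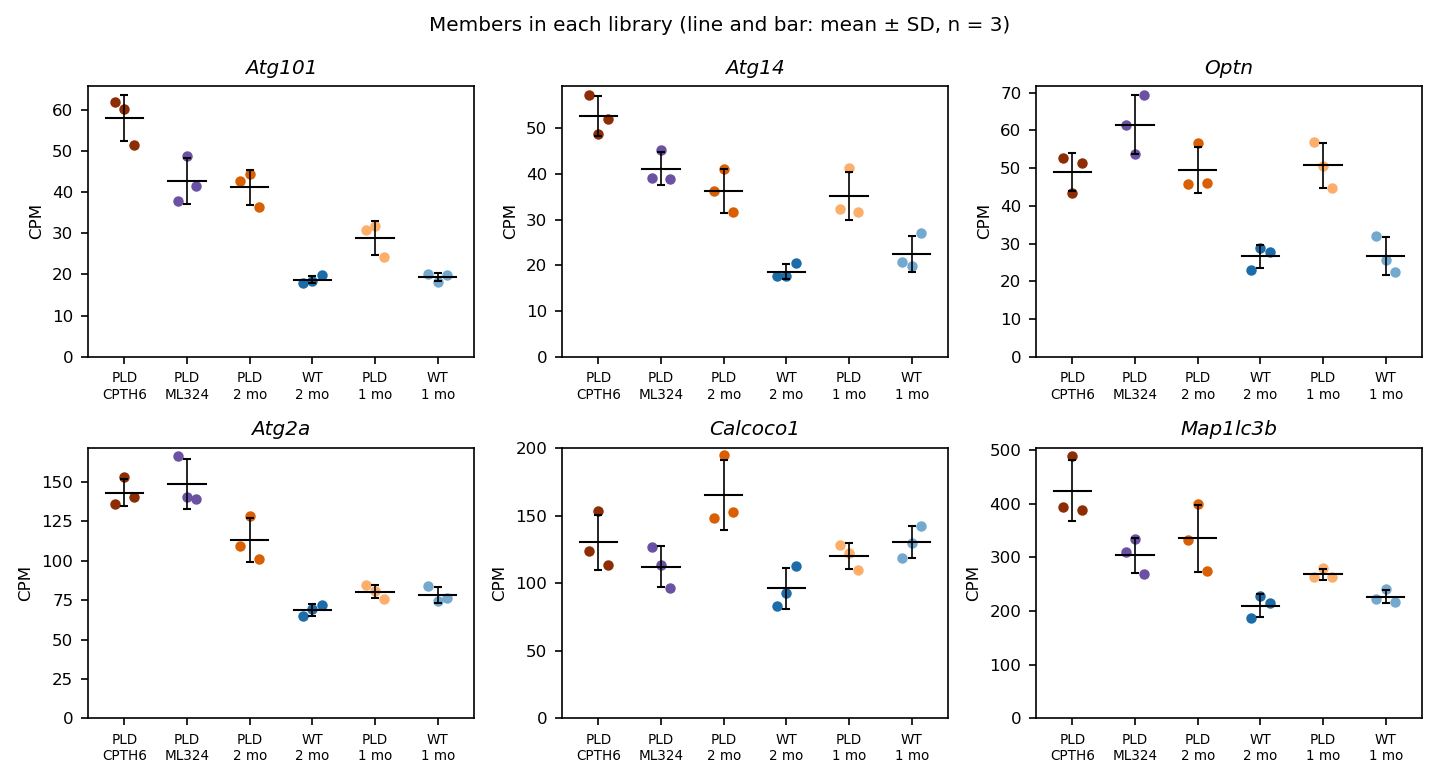
Atg101, Atg14, Optn, Atg2a, Calcoco1 and Map1lc3b in each library, 1 panel per gene (y axis, CPM from 0), with the 6 groups on the x axis and lines and bars for the mean ± SD of 3 libraries. Atg101, Atg14 and Optn stand above WT in PLD at either month, Atg2a and Calcoco1 at 2 months only, and Atg101 and Atg14 are highest after CPTH6.

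The transcription factors TFEB and TFE3 drive genes of lysosomes and autophagy when mTORC1 is inactive, mainly through their move into the nucleus, which mRNA levels do not show. Tfeb (ENSMUSG00000023990.18, chr17:47737030-47792419, plus strand) had 17.1, 30.5 and 25.5 CPM after CPTH6 and 21.1, 17.8 and 28.1 CPM after ML324. Untreated cells had 34.5, 29.6 and 27.2 CPM in PLD and 30.4, 23.7 and 21.0 CPM in WT at 2 months. At 1 month the values were 22.4, 21.6 and 21.1 CPM in PLD and 25.2, 22.6 and 28.4 CPM in WT. By edgeR with all libraries it was called in no comparison, with 0.30 (95% interval -0.03 to 0.63) in PLD against WT at 2 months and -0.25 at 1 month. PLD at 2 months was 0.51 ± 0.15 above PLD at 1 month (edgeR adjusted p = 0.0553), a change that DESeq2 and the edgeR fit of only those 6 libraries called. The genotypes overlapped at 2 months, and at 1 month all PLD libraries lay below WT. Tfe3 (ENSMUSG00000000134.17, chrX:7762560-7775202, plus strand) had 106, 126 and 103 CPM after CPTH6 and 90.0, 87.2 and 89.0 CPM after ML324. The untreated libraries had 82.0, 73.4 and 76.1 CPM in PLD at 2 months and 64.9, 68.0 and 73.5 CPM in WT at 2 months. The 1 month values were 93.9, 85.8 and 80.6 CPM in PLD and 70.5, 72.9 and 72.3 CPM in WT. The CPTH6 libraries were the highest of all, and the rise over untreated PLD was 0.53 ± 0.09 (edgeR adjusted p = 0.00391), against 0.25 and no call for ML324.

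Other genes of the pathway were read from 4 lists, which were drawn up with earlier results of these data known. Of 36 lysosomal genes 1 was higher and 11 lower after CPTH6, with a median log2 fold change of -0.26, and 1 higher and 16 lower after ML324, with a median of -0.39, both against untreated PLD. The shares called were 33.3% after CPTH6, beside 23.1% of all genes, and 47.2% after ML324, beside 19.4%. The higher one was Npc1, the lysosomal cholesterol exporter, in either case, with 268 ± 49.6 CPM after CPTH6, 254 ± 20.2 CPM after ML324 and 170 ± 22.4 CPM in untreated PLD (SD, n = 3). Among the lower ones, the calcium channel gene Mcoln1 and the hexosaminidase gene Hexa were lower after CPTH6 by 0.45 ± 0.08 and 0.83 ± 0.16, and Lipa, the acid lipase, and Psap, the precursor of the saposins, were lower after ML324 by 0.97 ± 0.14 and 0.80 ± 0.12. Macrophages are rich in lysosomes, and macrophage markers moved with these genes, with 5 of the 11 tested called lower after CPTH6 and 6 after ML324. Their sums were 865 to 1181 CPM after CPTH6, 704 to 824 CPM after ML324 and 942 to 1850 CPM in untreated PLD, and their part in the result was not tested. In PLD against WT at 2 months 7 of the 36 were higher, led by Npc1 (1.19 ± 0.16), Asah1 (acid ceramidase, 0.73 ± 0.11) and Atp6v1b2 (a proton pump subunit, 0.50 ± 0.09), and 5 lower (33.3%, beside 40% of all genes). At 1 month Npc1 alone was called, higher by 1.06 ± 0.16.

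Of 32 genes of upstream kinases and nutrient sensing, 8 were higher and 5 lower in PLD against WT at 2 months, and 2 higher and 0 lower at 1 month. These shares, 40.6% and 6.25%, were near those of all genes, 40% and 5.03%. The genes of both beta subunits of AMP-activated kinase differed in direction. Prkab1 had 197 ± 27.7 CPM in PLD and 60.3 ± 3.39 CPM in WT at 2 months, a rise of 1.73 ± 0.14 (edgeR adjusted p = 5.88e-05), while Prkab2 had 16.4 ± 0.43 CPM in PLD and 48.0 ± 2.87 CPM in WT, a change of -1.53 ± 0.24 (edgeR adjusted p = 0.000842). Of the other subunit genes in the list, Prkaa2, which is named after its values were seen, was higher by 0.91 ± 0.22 (edgeR adjusted p = 0.00878), and Prkaa1, Prkag1 and Prkag2 were not called. At 1 month Prkab1 was already higher, by 0.64 ± 0.14, as was Flcn, the folliculin gene, by 0.57 ± 0.14. Castor1, the arginine sensor of mTORC1, was lower in PLD at 2 months by 1.75 ± 0.33 and lower again after CPTH6 by 1.37 ± 0.20 and after ML324 by 1.12 ± 0.20 against untreated PLD. The folliculin partner Fnip1 was higher after CPTH6 by 1.03 ± 0.13 and after ML324 by 0.69 ± 0.13. For CPTH6 the counts were 4 higher and 4 lower, and for ML324 2 higher and 3 lower (25% and 15.6%, beside 23.1% and 19.4% of all genes).

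In the 29 other autophagy genes 5 were higher and 8 lower in PLD against WT at 2 months, led by Phb2 (a mitochondrial prohibitin that acts as a receptor, 0.84 ± 0.11) and Wdr45 (a WIPI relative, 0.71 ± 0.11) among those higher, and Bcl2 (an inhibitor of cell death that also binds beclin 1, -0.71 ± 0.12) among those lower. The share was 44.8%, beside 40% of all genes. At 1 month Mitf, a relative of TFEB, was the gene called, and was lower by 1.51 ± 0.25. After CPTH6 6 were higher and 3 lower, with Ncoa4, the receptor for ferritin, at 74.2 ± 7.85 CPM after CPTH6 and 43.0 ± 1.5 CPM in untreated PLD. After ML324 2 were higher and 3 lower, with Tbk1, the kinase that acts on optineurin and p62, higher by 0.61 ± 0.10 and Mitf lower by 1.37 ± 0.25. The shares were 31% and 17.2%, beside 23.1% and 19.4% of all genes. Of 16 genes of fusion with the lysosome 5 were higher and 1 lower in PLD at 2 months, led by the SNARE gene Vamp8 (1.12 ± 0.17), which is 37.5%, beside 40% of all genes. At 1 month 0 of these 16 were called, after CPTH6 1 was higher and 1 lower, and after ML324 0 were higher and 1 lower, all below the shares of all genes.

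**Figure D5:**
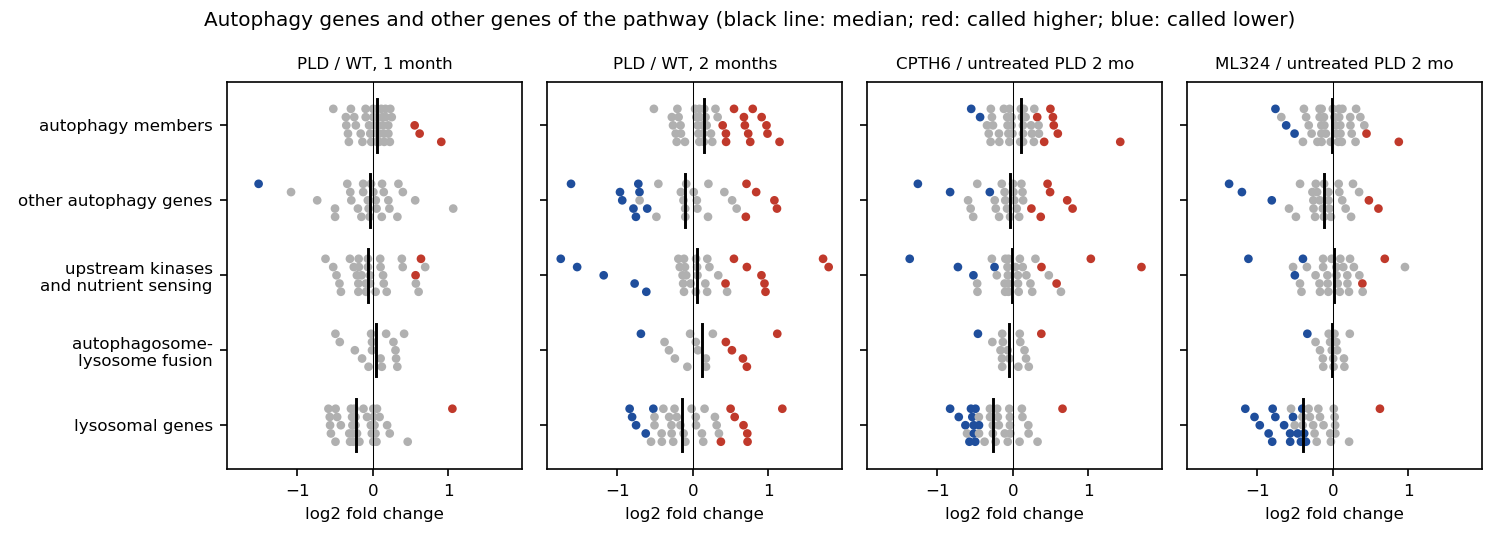
Log2 fold change (x axis) of each gene of the 40 autophagy genes and of 4 other lists of the pathway (rows, with a black line at each median) in 4 comparisons. Red points were called higher and blue points lower; the lysosomal row lies to the left after both compounds, with medians of -0.26 for CPTH6 and -0.39 for ML324.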

How the data were processed

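PolyA RNA of cholangiocytes from 6 groups of 3 libraries was used as deposited, as whole-number counts of read pairs per gene. The counts were made with STAR 2.7.4a, SAMtools 1.12 and featureCounts 1.6.0 against mm10 per the submitters' processing notes, and per the file headers with the GENCODE M25 annotation, paired reads and no strand setting. Reads of overlapping genes on opposite strands therefore cannot be told apart. The notes also name DESeq2 1.26.0, whose output was not used here. Gene symbols were matched by Ensembl identifier to GENCODE M21 names, which named 55141 of 55401 genes, and 1 gene of the pathway lists was matched by a synonym. No library column failed to match its sample (0), and no library repeated the counts of another.

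The tests used edgeR (version 4.0.16, R 4.3.3), with filterByExpr for low counts, TMM scaling, a quasi-likelihood F-test and Benjamini-Hochberg adjustment over all genes tested. A gene was called at an adjusted p under 0.05. The fits held the 12 untreated libraries (8 residual degrees of freedom), the 9 libraries of CPTH6, ML324 and PLD at 2 months (6), and the 6 treated libraries (4). Log2 fold changes, standard errors and 95% intervals come from these fits. CPM are TMM-scaled over all 18 libraries, and TPM use the exon lengths in the files. A prior count of 2 was used only for log2 CPM, from which the correlations of replicates were taken. Counting error is small at these depths, so the spread among libraries limits precision.

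Alternatives were RLE size factors, no filter, DESeq2 1.42.0, a replicate block, fits of only the libraries compared, leaving out each library and, added after seeing the data, leaving out both WT libraries that stood apart. Values in every library were given for up to 6 called genes per comparison by smallest adjusted p, for genes called in the interaction, for 6 usual marker genes and for the 3 highest and 3 lowest in TPM; from other lists up to 3 called genes per comparison were named, and their values in other comparisons given where called, except for a lysosomal gene that is not reported here by name. The members and lists were chosen with earlier results of these data known. The scripts were tested on simulated counts. Tables and figures were made with Python 3.11.15, pandas 2.3.3, scipy 1.17.1 and matplotlib 3.10.9. Promoter windows came from RefSeq (GRCm38.p6).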

Additional observations from a re-analysis of the deposited data

Results flagged for a closer look

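The difference between PLD and WT differed between 2 months and 1 month for 2 of the 40 genes by the interaction test (5%, beside 5.68% of all genes tested). It was 0.72 larger at 2 months for Atg2a (log2, edgeR adjusted p = 0.0257) and 0.93 larger for Calcoco1 (edgeR adjusted p = 0.0309). Neither call was left with a replicate block, and 0 to 3 of the 40 genes were called with a library left out. For Pik3c3 all PLD libraries lay above the WT libraries at 2 months and below them at 1 month. The difference between these changes was 0.62, which did not pass the interaction test (edgeR adjusted p = 0.128).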

How the results depend on the processing

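For 27 called values of named genes, 250 of 323 recomputed values stayed called in the same direction, 73 were no longer called and 0 reversed. These 27 were mostly picked by smallest adjusted p per comparison. They leave out weaker calls, such as those of Gabarapl2, Ulk2 and Tax1bp1 after CPTH6, each lost in several alternatives. At 1 month the count of genes called in PLD against WT (3) was 1 with a replicate block, 0 with only the 6 libraries compared, and 0 to 5 with a library left out. For PLD at 2 months against 1 month (3) it was 1 without a filter, 6 by DESeq2, 7 with only the 6 libraries compared, 7 without both WT libraries that stood apart, and 0 to 1 with a library left out. For WT over time (0) it was 1 without a filter, 2 by DESeq2 and 0 to 1 with a library left out. For the interaction (2) it was 1 without a filter, 5 by DESeq2, 0 with a replicate block and 0 to 3 with a library left out. DESeq2 called 1 gene between CPTH6 and ML324 (0). With a library left out the counts were 11 to 13 at 2 months (13), 5 to 10 for CPTH6 (9) and 3 to 6 for ML324 (5), where an arm of 2 libraries shares the spread of the others. Whether replicate numbers pair libraries was not settled. The lowest correlation of same-numbered deviations lay between -0.23 and 0.08 in the 7 comparisons of 2 groups. The highest single value was 0.26, in CPTH6 against ML324 (0.26, 0.16 and -0.10), where 2 libraries correlated best with their own number. As a hint from the data only, all 3 libraries correlated best with their own number in WT over time (0.08, 0.20 and 0.15) and in ML324 against untreated PLD (0.06, 0.11 and 0.03). The block gave 13 calls at 2 months, 9 for CPTH6 and 6 for ML324.

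Reversals touched uncalled values near 0. Becn1 at 1 month was -0.003 with RLE, -0.004 by DESeq2, -0.000 with only the 6 libraries compared and -0.124 without both WT libraries that stood apart, and ran from -0.115 to 0.081 with a library left out. At 2 months Becn1 was -0.025 without both of these WT libraries and ran from -0.024 to 0.177 with a library left out. In ML324 against untreated PLD, with a library left out, Becn1 ran from -0.052 to 0.096, Map1lc3b from -0.218 to 0.043 and Ulk1 from -0.016 to 0.230. The cause was not tested.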
